A study of Mus musculus with 8 samples.

Results

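The genes of phosphoinositide 3-kinase (PI3 kinase) signalling described here are Pik3ca, Pik3cb, Pik3cd, Pik3cg, Pik3r1, Pik3r5, Pik3ip1, Inpp5d and Akt1, chosen by symbol. They are 9 of the 27179 genes in the count matrix, and all 9 had enough counts to be among the 13184 tested. Their RNA was measured by sequencing in 8 libraries of mouse natural killer (NK) cells, innate lymphocytes that kill infected or transformed cells. The cells came from the spleen, bone marrow and blood of C57BL/6 mice and had been selected with DX5 (anti-CD49b) beads. There were 2 libraries in each of 4 groups: CIS-null in vitro, wild type in vitro, CIS-null ex vivo and wild type ex vivo. CIS-null cells (CIS-/- in the labels) lack CIS, the Cish product, an inhibitor of cytokine signalling of the SOCS family. The labels name neither the allele nor the age or sex of the mice, and do not describe the culture. It is not stated whether replicates were separate mice or cultures, so the p-values rest on a spread between libraries that may be technical.

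PI3 kinases of class I phosphorylate a membrane lipid to PIP3, which recruits kinases such as Akt to the membrane. Each catalytic subunit works with a regulatory subunit: p110alpha, p110beta and p110delta mostly with p85 proteins downstream of tyrosine-based receptors (class IA), and p110gamma with p101 or p84 downstream of G protein-coupled receptors (class IB). In NK cells p110delta and p110gamma are known for their part in development, cytotoxicity and cytokine production, and the lipid phosphatase SHIP-1 (Inpp5d) for restraining the pathway.

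Each library held 21.5 to 28.1 M counts. Cish was lower in CIS-null libraries (21.2 and 17.2 counts per M, CPM, in vitro; 1.29 and 2.64 CPM ex vivo) than in wild type libraries (219.8 and 201.9 CPM in vitro; 9.26 and 9.12 CPM ex vivo). The 8 NK markers examined summed to between 16720 and 31930 CPM per library, with Gzma the largest in each. Sex-linked transcripts split the libraries along with genotype. Xist stood at 130.7 and 89.7 CPM in CIS-null in vitro libraries and at no more than 0.0351 CPM in wild type in vitro libraries. Ex vivo it stood at 0.322 and 0.197 CPM in CIS-null libraries, against 119.6 and 162.1 CPM in wild type libraries. The Y-linked Eif2s3y was at or below 0.0386 CPM in CIS-null in vitro libraries and at 21.7 CPM or more in every other library. Genotype and this difference cannot be told apart in either state. Nor can culture and this difference in CIS-null cells, and Xist differed between the states of wild type cells as well. All 5 sex-linked transcripts examined were called in both culture comparisons. None of the 9 genes lies on a sex chromosome.

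The sequences upstream of 3 of the genes are shown because these genes set the pattern described below: Pik3cb and Pik3r5 fell most on culture, and Pik3ip1 alone was called higher in cultured wild type cells. Each run is the 250 bases before the RefSeq transcript start in GRCm38.p6, 5′ to 3′ on the gene's strand: chr9:99140212-99140461 (minus strand) for Pik3cb, chr11:68431875-68432124 (plus strand) for Pik3r5 and chr11:3330481-3330730 (plus strand) for Pik3ip1. Capitals mark CACCC, the core letters of a KLF motif, or its reverse complement GGGTG; the Pik3r5 run holds neither.
Pik3cb: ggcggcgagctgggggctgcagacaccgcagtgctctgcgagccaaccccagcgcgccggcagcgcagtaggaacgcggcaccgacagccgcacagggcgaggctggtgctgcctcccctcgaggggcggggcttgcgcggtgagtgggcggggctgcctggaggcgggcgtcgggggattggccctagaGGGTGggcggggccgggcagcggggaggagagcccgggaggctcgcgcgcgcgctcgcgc
Pik3r5: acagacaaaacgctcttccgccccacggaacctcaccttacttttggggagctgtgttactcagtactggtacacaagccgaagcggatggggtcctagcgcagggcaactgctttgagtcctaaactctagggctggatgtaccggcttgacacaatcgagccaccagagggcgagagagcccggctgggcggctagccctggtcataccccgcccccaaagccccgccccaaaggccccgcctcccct
Pik3ip1: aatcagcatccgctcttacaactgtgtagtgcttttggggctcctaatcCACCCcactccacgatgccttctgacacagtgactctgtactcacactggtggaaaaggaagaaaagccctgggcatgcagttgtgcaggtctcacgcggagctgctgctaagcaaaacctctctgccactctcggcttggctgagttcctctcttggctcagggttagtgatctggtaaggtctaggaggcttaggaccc
The Pik3cb promoter was 78.0% G and C, the Pik3r5 promoter 61.6% and the Pik3ip1 promoter 53.6%, beside a median of 52.4% over 32851 mouse promoters. Over both strands, CACCC occurred in 8 of the 14 promoters of the 9 genes (57.1%), near the 52.0% of all promoters. The FOXO motif GTAAACA occurred in 2 of the 14, upstream of Pik3cg and Akt1, and in 3.17% of all promoters. The STAT motif TTCNNNGAA occurred in none of the 14, against 7.02% of all promoters. A match describes letters and not a bound site.

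Among the catalytic subunits, Pik3cd, which encodes p110delta, was the most abundant in every library. Levels are given as reads per kilobase of gene length and M counts (RPKM), so that genes can be set beside each other. Pik3cd stood at 77.1 and 61.8 RPKM in CIS-null in vitro, 91.9 and 70.2 RPKM in wild type in vitro, 91.0 and 106.3 RPKM in CIS-null ex vivo and 106.5 and 108.2 RPKM in wild type ex vivo libraries. Its share of the summed RPKM of the 4 catalytic genes was 73.8% and 73.4% in CIS-null in vitro and 69.9% and 65.0% in wild type in vitro libraries, against 60.9% and 61.6% in CIS-null ex vivo and 61.9% and 61.8% in wild type ex vivo libraries. All in vitro shares thus lay above all ex vivo shares. The share of Pik3cb, for p110beta, was 3.10% and 3.42% in CIS-null in vitro and 3.19% and 4.15% in wild type in vitro libraries, against 10.3% and 11.5% in CIS-null ex vivo and 10.4% and 9.73% in wild type ex vivo libraries. Pik3ca, for the widely expressed p110alpha, held between 5.99% and 7.72% in every library, and Pik3cg, for p110gamma, between 17.1% and 23.1%.

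**Figure D1:**
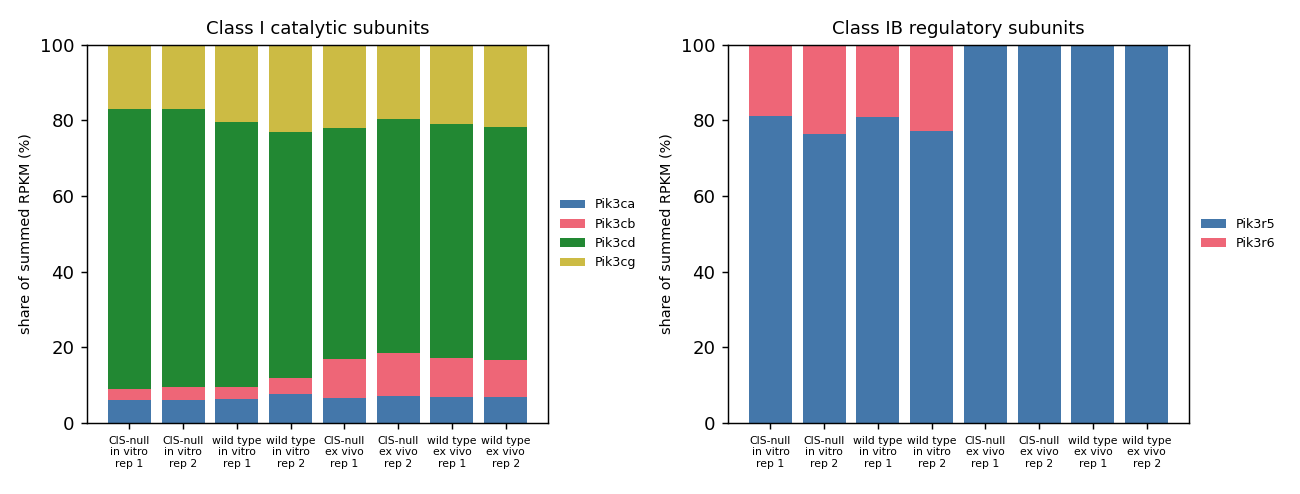
Share of summed RPKM (%) in each library for the 4 class I catalytic genes (left) and for the genes of the 2 class IB regulatory subunits (right), with 1 stacked bar per library. Pik3cb takes no more than 4.15% in the 4 in vitro libraries and at least 9.73% in the 4 ex vivo libraries, and Pik3r6 takes at least 18.8% in vitro and at most 0.311% ex vivo.

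The order of the 9 genes by mean level differed between the states. In wild type in vitro cells Akt1 (94.6 RPKM) stood first, before Pik3cd (81.0), Inpp5d (60.5), Pik3r1 (44.7), Pik3cg (26.0), Pik3r5 (23.0), Pik3ip1 (12.8), Pik3ca (8.39) and Pik3cb (4.33), and no neighbours overlapped. In CIS-null in vitro cells the order was the same, but Inpp5d and Pik3r1 overlapped, as did Pik3cg and Pik3r5. In wild type ex vivo cells Pik3cd (107 RPKM) came first and Pik3ip1 (9.40 RPKM) last, with Pik3r5 above Pik3cg and Pik3cb above Pik3ca. CIS-null ex vivo cells had that order too, with overlaps between Pik3cd and Akt1 and between Pik3ca and Pik3ip1. Among all tested genes, the level of Pik3cb stood at percentile 33.7 in CIS-null in vitro and 37.1 in wild type in vitro cells, against 67.2 in CIS-null ex vivo and 67.4 in wild type ex vivo cells.

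**Figure D2:**
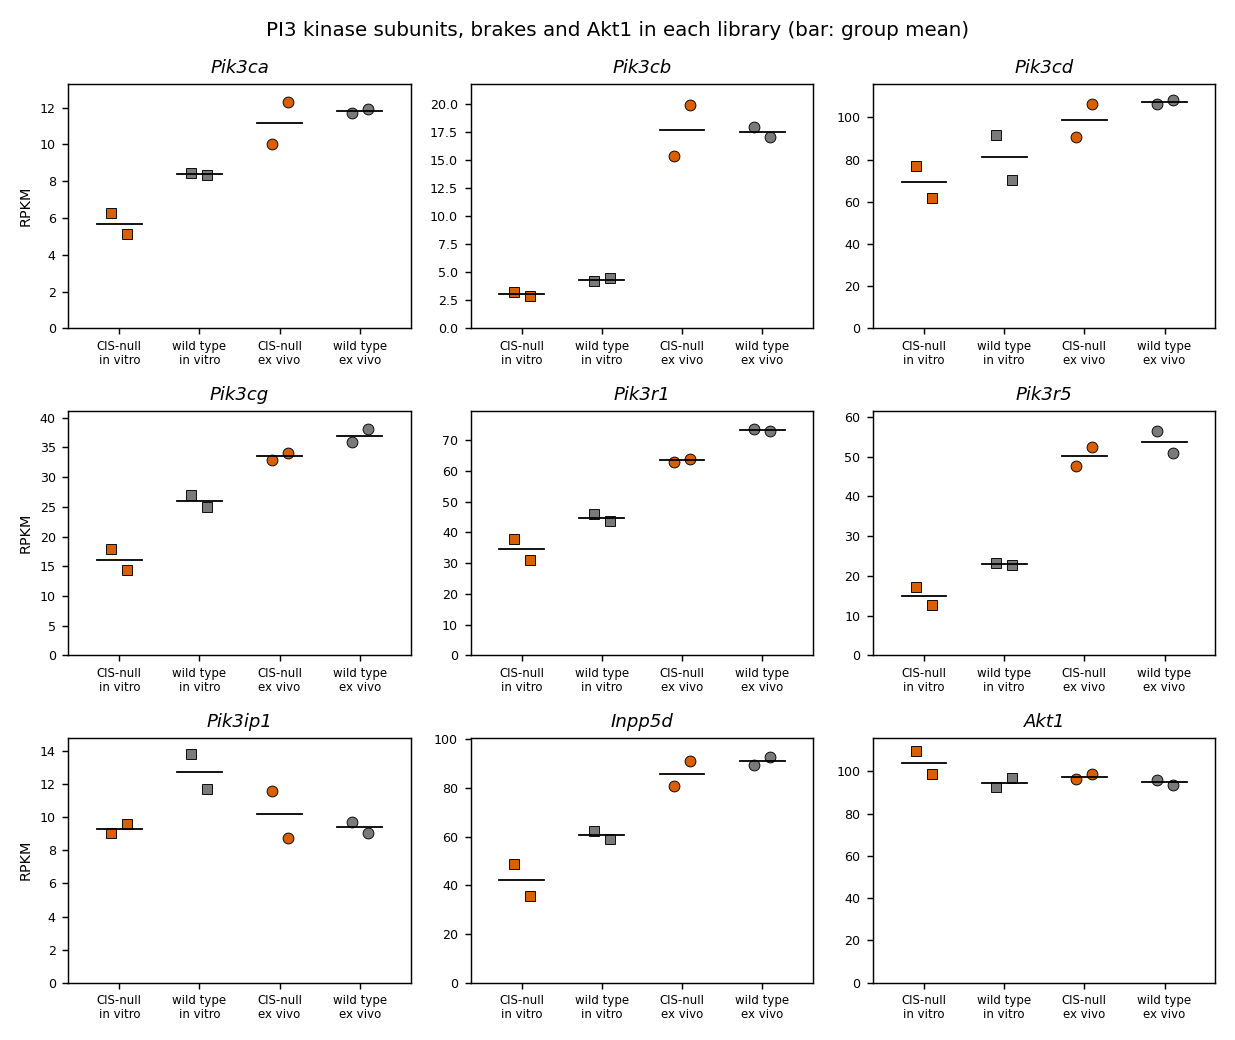
Level of each of the 9 genes (RPKM, linear axes from 0) in each library, with points for libraries and a bar for the mean of 2; orange is CIS-null, grey wild type, squares in vitro and circles ex vivo. Pik3cb and Pik3r5 lie far lower in all 4 in vitro libraries than in all 4 ex vivo libraries, whereas Akt1 stays between 92.5 and 109.5 RPKM throughout.

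Culture moved most of the 9 genes in the same direction. In CIS-null cells 7 of the 9 fell in vitro, where 37.5% of all tested genes fell, and 0 rose, where 34.8% of all tested genes rose (edgeR quasi-likelihood test, Benjamini-Hochberg adjusted p under 0.05). The same 7 had an unadjusted p under 0.05, as did 9837 of the 13184 tested genes, and DESeq2 and limma-voom also called 7. In wild type cells 7 fell, against 31.6% of all tested genes, and 1 rose, against 32.1%. The median log2 fold change of the 9 genes was -0.97 in CIS-null and -0.51 in wild type cells, beside -0.05 and -0.00 over all tested genes. Longer genes stood lower, and 7 of the 9 are long. Among tested genes of 3756 to 4535, 4536 to 5995 and at least 5996 bases, the medians were -0.394, -0.492 and -0.79 in CIS-null cells. In wild type cells those medians were -0.195, -0.252 and -0.412. The 7 that fell were in both genotypes the 4 catalytic genes, the 2 regulatory genes Pik3r1 and Pik3r5, and Inpp5d. The part of the sex-linked difference in these changes was not tested.

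Pik3cb fell most. Its level was 3.24 and 2.88 RPKM in CIS-null in vitro, 4.19 and 4.48 RPKM in wild type in vitro, 15.4 and 19.9 RPKM in CIS-null ex vivo and 18.0 and 17.04 RPKM in wild type ex vivo libraries. On culture it was 5.76-fold lower in CIS-null cells (-2.53 on the log2 scale with an SE of 0.141, 2 libraries a group; edgeR adjusted p = 1.76e-06) and 4.04-fold lower in wild type cells (-2.01 with an SE of 0.137; edgeR adjusted p = 6.82e-06). Every in vitro library lay below every ex vivo library, and both calls held under all 18 alternatives. p110beta is unusual among catalytic subunits in that it responds both to tyrosine-based and to G protein-coupled receptors. Pik3cb spans chr9:99038402-99140235 in GRCm38.p6, 8.16 Mb from Cish on the same chromosome.

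Pik3r5, for the p101 regulatory subunit of p110gamma, fell next. It stood at 17.3 and 12.6 RPKM in CIS-null in vitro, 23.4 and 22.6 RPKM in wild type in vitro, 47.6 and 52.5 RPKM in CIS-null ex vivo and 56.4 and 50.8 RPKM in wild type ex vivo libraries. On culture Pik3r5 fell by 1.74 on the log2 scale in CIS-null cells (SE 0.148, edgeR adjusted p = 1.56e-05) and by 1.22 in wild type cells (SE 0.145, edgeR adjusted p = 0.000148). Both calls held under all 18 alternatives.

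The gene of the other p110gamma partner, Pik3r6 (p84, also called p87), is its neighbour and went the opposite way. Pik3r6 lies at chr11:68503019-68552698 in GRCm38.p6, on the strand of Pik3r5 and 5.17 kb beyond its end. It had 336 and 314 counts in CIS-null in vitro and 514 and 617 counts in wild type in vitro libraries, against 3 and 8 counts in CIS-null ex vivo and 13 and 13 counts in wild type ex vivo libraries. The ex vivo counts are few, so the size of the rise is less certain than its direction. The log2 fold change of Pik3r6 on culture was 5.75 in CIS-null cells (SE 0.274, edgeR adjusted p = 8.63e-07) and 5.21 in wild type cells (SE 0.237, edgeR adjusted p = 8.87e-07). Pik3r6 made up 18.8% and 23.5% of the class IB regulatory RPKM in CIS-null in vitro and 19.1% and 22.8% in wild type in vitro libraries, against 0.0896% and 0.185% in CIS-null ex vivo and 0.299% and 0.311% in wild type ex vivo libraries. Pik3r5 was the larger of the pair in every library.

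**Figure D3:**
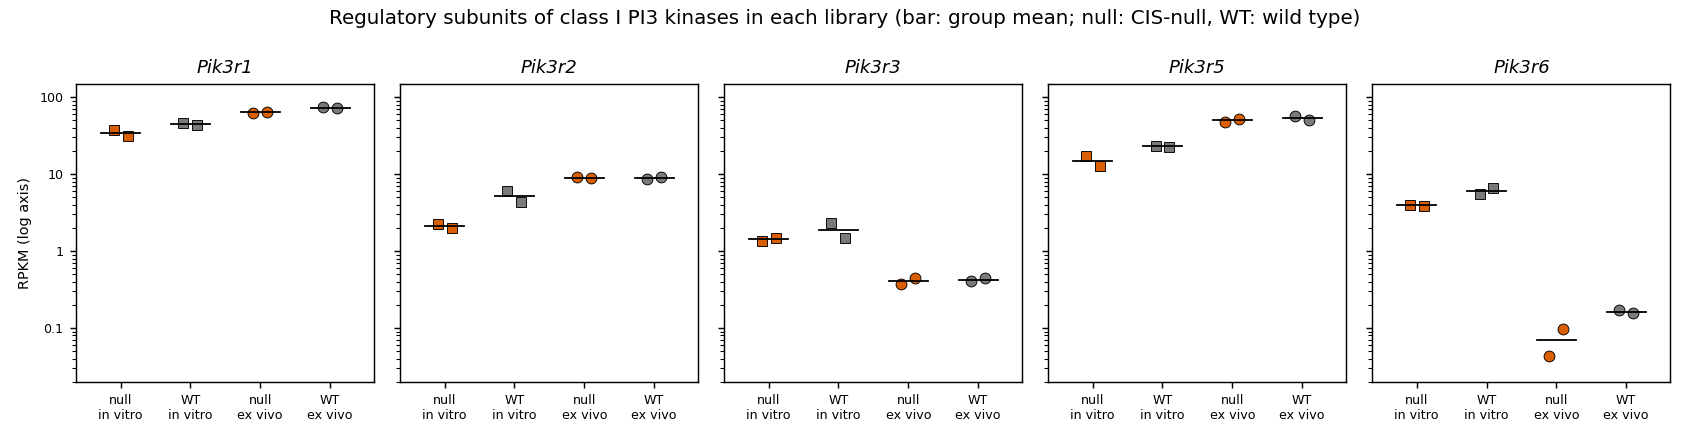
Levels (RPKM, shared log axis) of the 5 class I regulatory subunit genes in each library, with points for libraries and a bar for the mean of 2; orange is CIS-null, grey wild type, squares in vitro and circles ex vivo. Pik3r6 and Pik3r3 are higher in all in vitro than in all ex vivo libraries, and Pik3r1, Pik3r2 and Pik3r5 are lower.

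Pik3r1, which encodes p85alpha, the main class IA regulatory subunit, stood at 38.0 and 31.2 RPKM in CIS-null in vitro, 46.0 and 43.5 RPKM in wild type in vitro, 62.9 and 64.0 RPKM in CIS-null ex vivo and 73.6 and 73.0 RPKM in wild type ex vivo libraries. On culture it fell by 0.87 on the log2 scale in CIS-null cells (SE 0.110, edgeR adjusted p = 0.000131) and by 0.71 in wild type cells (SE 0.109, edgeR adjusted p = 0.000606). The other class IA regulatory genes, Pik3r2 (p85beta) and Pik3r3 (p55gamma), moved apart. Pik3r2 fell by 2.11 in CIS-null cells (SE 0.169, edgeR adjusted p = 1.14e-05) and by 0.80 in wild type cells (SE 0.157, edgeR adjusted p = 0.00232). Pik3r3 rose by 1.80 in CIS-null cells (SE 0.258, edgeR adjusted p = 0.000278) and by 2.16 in wild type cells (SE 0.254, edgeR adjusted p = 0.000140). Pik3r1 made up 84.7% to 91.3% of class IA regulatory RPKM in every library.

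The other falling genes changed less. Pik3cg stood at 17.9 and 14.4 RPKM in CIS-null in vitro, 26.9 and 25.0 RPKM in wild type in vitro, 33.0 and 34.1 RPKM in CIS-null ex vivo and 35.9 and 38.0 RPKM in wild type ex vivo libraries. Inpp5d stood at 48.6 and 35.4 RPKM in CIS-null in vitro, 62.2 and 58.8 RPKM in wild type in vitro, 80.7 and 90.8 RPKM in CIS-null ex vivo and 89.3 and 92.8 RPKM in wild type ex vivo libraries. Its product SHIP-1 dephosphorylates PIP3. Pik3ca stood at 6.26 and 5.13 RPKM in CIS-null in vitro, 8.44 and 8.34 RPKM in wild type in vitro, 10.04 and 12.3 RPKM in CIS-null ex vivo and 11.7 and 11.9 RPKM in wild type ex vivo libraries. In these 3 genes and in Pik3cd the in vitro libraries of each genotype lay below its ex vivo libraries. How many of all tested genes separate this way is not given here. In CIS-null cells the log2 fold changes on culture were -1.05 for Pik3cg (edgeR adjusted p = 6.59e-05), -1.03 for Inpp5d (0.000273), -0.97 for Pik3ca (0.000176) and -0.51 for Pik3cd (0.0180). In wild type cells they were -0.51 for Pik3cg (edgeR adjusted p = 0.00486), -0.59 for Inpp5d (0.00731), -0.49 for Pik3ca (0.00864) and -0.41 for Pik3cd (0.0496). With a library left out the fit has fewer degrees of freedom, and a group of 1 library is assumed to vary like the other groups. The CIS-null call of Pik3cd was then lost without replicate 2 of CIS-null ex vivo (-0.39, adjusted p = 0.0896) or of CIS-null in vitro (-0.35, 0.126). In wild type cells, leaving out replicate 2 of the ex vivo or of the in vitro libraries ended the calls of Pik3ca (0.0556 and 0.0517) and Inpp5d (0.0504 and 0.0508), while their log2 fold changes stayed at -0.48 and -0.48 for Pik3ca and at -0.56 and -0.54 for Inpp5d. The call of Pik3cd ended without wild type in vitro replicate 2, where its value shrank to -0.22 (0.310), without wild type ex vivo replicate 1 (-0.41, 0.146) or 2 (-0.39, 0.166), and with library totals (-0.41, 0.0550).

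Pik3ip1 and Akt1 did not share the fall. Pik3ip1 encodes a membrane protein that binds p110 subunits and restrains them. It stood at 9.04 and 9.61 RPKM in CIS-null in vitro, 13.8 and 11.7 RPKM in wild type in vitro, 11.6 and 8.77 RPKM in CIS-null ex vivo and 9.72 and 9.08 RPKM in wild type ex vivo libraries. In CIS-null cells the in vitro and ex vivo libraries overlapped, and the log2 fold change was -0.12 (SE 0.150, edgeR adjusted p = 0.473). In wild type cells it rose by 0.44 on the log2 scale (SE 0.148, edgeR adjusted p = 0.0284), with both in vitro libraries above both ex vivo libraries. That call ended when either wild type ex vivo library was left out (0.49 and 0.40 on the log2 scale, adjusted p = 0.0810 and 0.144), without wild type in vitro replicate 1, where the value shrank to 0.28 (0.212), and by limma on log2 RPKM (0.31, 0.0923). Akt1, a main kinase activated through PIP3, stood at 109.5 and 99.0 RPKM in CIS-null in vitro, 92.5 and 96.7 RPKM in wild type in vitro, 96.3 and 98.6 RPKM in CIS-null ex vivo and 95.9 and 93.7 RPKM in wild type ex vivo libraries. Its log2 fold change on culture was 0.10 in CIS-null cells (95% interval -0.11 to 0.30, edgeR adjusted p = 0.350) and -0.00 in wild type cells (95% interval -0.21 to 0.20, edgeR adjusted p = 0.980).

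Gene length moved with these comparisons. Over the 13184 tested genes, Spearman's rho between log2 fold change and gene length was -0.31 for culture in CIS-null cells, -0.23 for culture in wild type cells, -0.46 for genotype in vitro and -0.29 for genotype ex vivo. Between the 2 CIS-null in vitro replicates it was 0.48. Of the 9 genes, 7 are 4363 to 8917 bases long in the matrix, and Pik3ip1 (2243 bases) and Akt1 (2690 bases) are shorter. With each library's trend on length removed, 4 of the 9 genes were called on culture in CIS-null cells and 5 in wild type cells. Of the 13184 tested genes, 9391 and 8461 were then called in either direction. Pik3cb kept most of its fall (log2 fold change -2.04 in CIS-null and -1.75 in wild type cells), as did Pik3r5 (-1.33 and -0.998), and Inpp5d also passed in both genotypes (-0.54 and -0.32). Pik3ca (-0.15 and -0.02) and Pik3cd (0.04 and -0.10) passed in neither. Pik3cg (-0.37) passed in CIS-null cells, and Pik3r1 (-0.30) and the rise of Pik3ip1 (0.40) in wild type cells. The part of length in the changes of single genes was not tested.

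**Figure D4:**
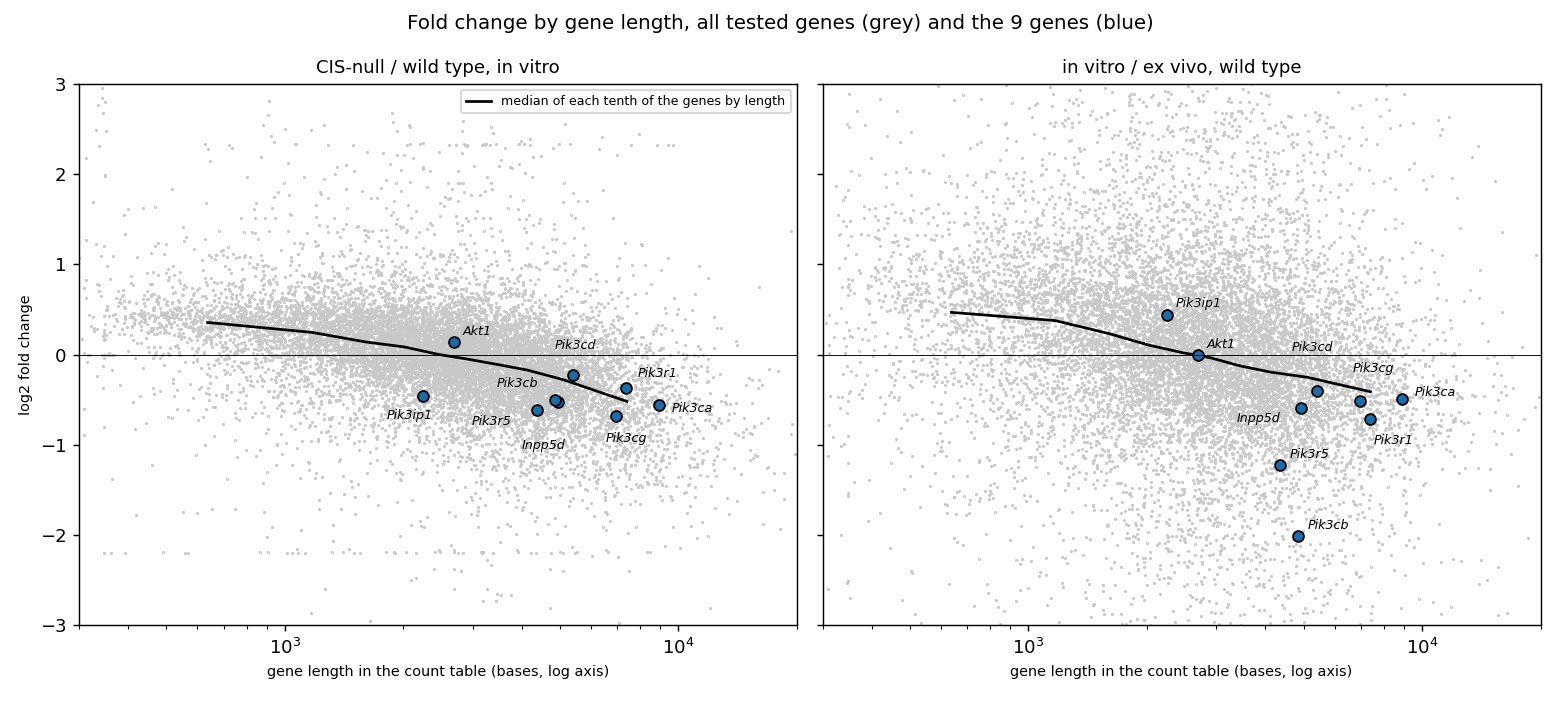
Log2 fold change against gene length (bases, log axis) for all tested genes (grey) and the 9 genes (blue), for genotype in vitro (left) and culture in wild type cells (right), drawn between -3 and 3; the line joins the medians of 10 equal bins of the genes by length. Pik3cb and Pik3r5 lie far below the line on culture, whereas Pik3cd and Pik3r1 lie slightly above it for genotype in vitro.

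Cell markers moved with culture too, where 72.4% of all tested genes were called in either direction in CIS-null and 63.7% in wild type cells. Of the 8 NK markers 7 were called lower and 1 higher in each genotype, with a median log2 fold change of -1.50 in CIS-null and -1.27 in wild type cells. Eomes, a transcription factor of NK cells, stood at 124.5 and 109.5 CPM in CIS-null in vitro, 183.2 and 165.6 CPM in wild type in vitro, 616.4 and 589.9 CPM in CIS-null ex vivo and 736.1 and 661.9 CPM in wild type ex vivo libraries. All 6 B cell markers were called lower in both genotypes. They summed to between 88.0 and 154.9 CPM in vitro and between 208.6 and 550.3 CPM ex vivo, and Ms4a1 and Pax5 were at 0 in all 4 in vitro libraries. Of the 5 monocyte and macrophage markers in the matrix, 3 were called lower and 1 higher in each genotype. Their sum was between 18.3 and 29.2 CPM in vitro, nearly all of it Cd68, and between 81.0 and 126.6 CPM ex vivo, while Csf1r, Lyz2 and C1qa were each at or below 0.0386 CPM in vitro. Of the 6 T cell markers, 4 were called higher and 1 lower in CIS-null cells, and 2 higher and 2 lower in wild type cells. Their sum, mostly Cd3g in vitro, was between 161.5 and 833.8 CPM in vitro and between 21.7 and 44.9 CPM ex vivo. In each genotype all 4 tested neutrophil markers and all 6 platelet and erythroid markers were called lower, and of 6 basophil and mast cell markers 2 were called higher and 4 lower. The part of these markers in the changes, including those of genes that other cells also use, such as Inpp5d and Pik3r5, was not tested. In bulk RNA, fewer cells of a type and less RNA per cell cannot be told apart.

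Other genes of the pathway were counted by list, with edgeR. Beside these counts, 37.5% of all tested genes fell and 34.8% rose on culture in CIS-null cells. In wild type cells 31.6% fell and 32.1% rose. Of 8 other phosphatases of PIP3, its products or Akt, 1 rose and 6 fell on culture in CIS-null cells, and 1 rose and 5 fell in wild type cells. The one that rose in both was Inpp4b, which acts on the lipid that SHIP-1 produces, with log2 fold changes of 4.58 in CIS-null (edgeR adjusted p = 3.81e-07) and 4.73 in wild type cells (4.70e-07). Phlpp1, an Akt phosphatase, had the largest fall, by 2.40 in CIS-null and 1.82 in wild type cells on the log2 scale. Of 8 kinases downstream of PIP3, 7 fell in CIS-null and 6 in wild type cells, and the rest did not pass. They were led by Sgk1 (-3.15 in CIS-null and -3.28 in wild type cells), a kinase related to Akt. Of 5 tested adaptors that recruit PI3 kinase, 3 fell and 1 rose in CIS-null cells and 4 fell in wild type cells, with Gab2 lowest (-3.05 and -2.92). Of the 3 tested class II and III genes, 3 fell in CIS-null cells and 1 in wild type cells (Pik3c3, -0.92). With the length trend removed, Pik3c2a, which fell by 0.39 in CIS-null cells, was called higher there (0.375, edgeR adjusted p = 0.0327), and Phlpp2 and Pdpk1 passed in neither genotype. The last list held 8 genes that FOXO factors, which active Akt keeps out of the nucleus, are known to activate. Of these 6 fell in each genotype, with Klf2 lowest (-9.03 in CIS-null and -8.05 in wild type cells), and Sesn1 rose in wild type cells (0.77).

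In the genotype comparison in vitro, 6 of the 9 genes were lower in CIS-null cells, where 14.6% of all tested genes were lower. An unadjusted p under 0.05 was found for 7 of 9, and for 5292 of the 13184 tested genes. The median log2 fold change of the 9 was -0.50, beside 0.00 over all tested genes. Longer genes stood lower. Among tested genes of 3756 to 4535, 4536 to 5995 and at least 5996 bases, the medians were -0.171, -0.28 and -0.519. Pik3cg differed most, at -0.69 with an SE of 0.117 over 2 libraries a group (edgeR adjusted p = 0.00722), which is 1.61-fold lower. It was followed by Pik3r5 at -0.62 (SE 0.145, edgeR adjusted p = 0.0187), so that p110gamma and its p101 partner were both lower in RNA. Pik3ca (-0.56, edgeR adjusted p = 0.0170), Inpp5d (-0.53, 0.0323), Pik3cb (-0.50, 0.0328) and Pik3r1 (-0.37, 0.0388) also passed. In all 6 both CIS-null libraries lay below both wild type libraries. The share of all tested genes that separate this way is not given here. Pik3ip1 had the same separation but did not pass (-0.45, SE 0.148, edgeR adjusted p = 0.0542). Pik3cd overlapped between genotypes (-0.22, SE 0.158, edgeR adjusted p = 0.327). Akt1 was the one gene with a positive value (0.14, SE 0.0895, edgeR adjusted p = 0.279).

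**Figure D5:**
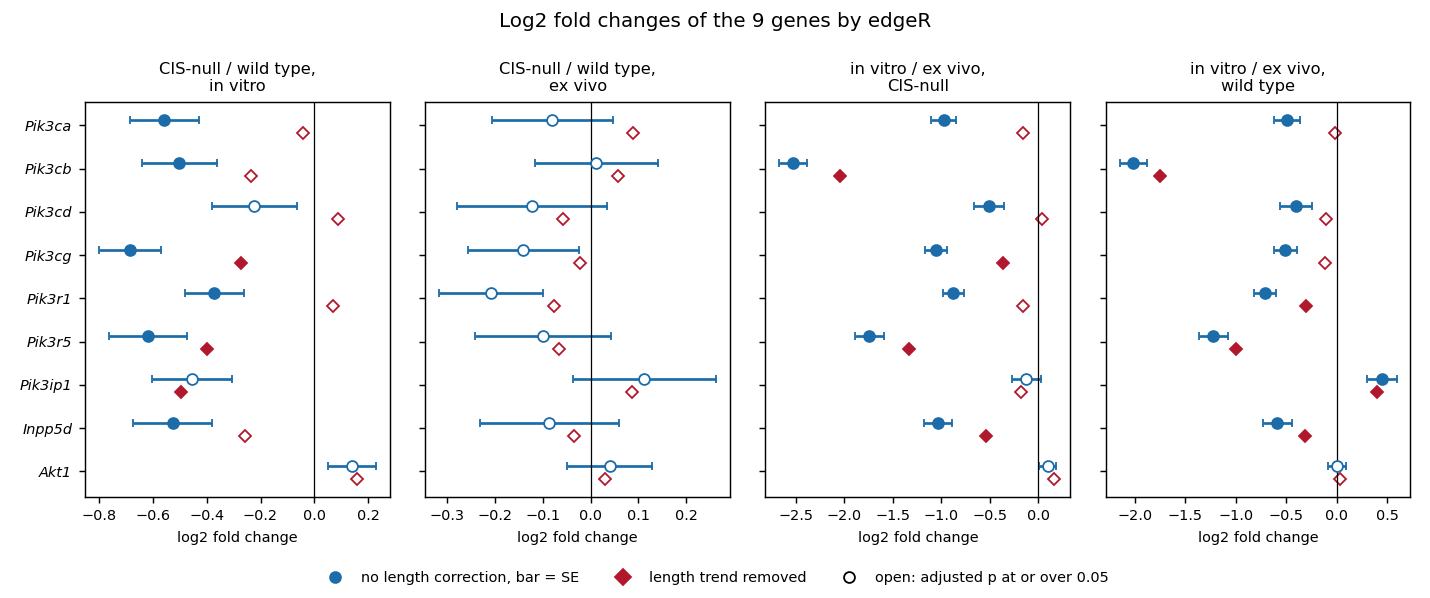
Log2 fold changes of the 9 genes in the 4 comparisons (1 panel each, own axes), with blue circles and SE bars for the values without length correction and red diamonds for those with each library's length trend removed; filled symbols passed an adjusted p of 0.05. For genotype in vitro, 6 blue and 3 red symbols are filled, and for genotype ex vivo 0 are.

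Leaving out single libraries and removing the length trend changed these calls. Without wild type in vitro replicate 1, 0 of the 9 genes passed by edgeR, although Pik3ca (-0.51), Pik3cb (-0.51) and Pik3cg (-0.59) had values near those above. Without wild type in vitro replicate 2, Pik3cg alone passed. Without CIS-null in vitro replicate 2, Pik3cg again was the 1 gene that passed, and the values shrank to -0.41 for Pik3r5, -0.32 for Inpp5d and -0.23 for Pik3r1. Leaving out wild type ex vivo replicate 1 or 2, which are not in this comparison but enter its estimate of spread, left 3, with Pik3cb still at -0.50 either way. Pik3cb did not pass by limma on log2 RPKM (adjusted p = 0.0554), nor Pik3r1 with no filter (0.0555), nor Pik3r1 (0.0735) and Inpp5d (0.0515) with only the groups compared. Pik3ip1 passed with library totals (0.0199) or a stricter filter (0.0492), and without either CIS-null ex vivo library (0.0202 and 0.0199). With the length trend removed 3 of the 9 passed, beside 2925 of the 13184 tested genes, 1362 of them lower. The 3 were Pik3cg (-0.27, edgeR adjusted p = 0.0416), Pik3r5 (-0.40, 0.0312) and Pik3ip1 (-0.50, 0.0289). Pik3ca then stood at -0.04 (0.698), and Pik3r1 (0.07) and Pik3cd (0.09) turned positive. Markers of T cells were also higher in CIS-null cells in vitro: 5 of 6 passed, and their sum was 833.8 and 797.8 CPM in CIS-null against 170.1 and 161.5 CPM in wild type libraries. Most of it was Cd3g, Cd3d and Cd3e, while Cd4 was at or below 0.104 CPM in all 4 in vitro libraries and at 0 in 1 of them. Of the NK markers 3 were called higher and 1 lower, and Gzma stood at 20330 and 25880 CPM in CIS-null against 14000 and 11680 CPM in wild type in vitro libraries. The part of these markers and of the sex-linked difference in the lower values was not tested.

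Of the other class I regulatory genes, Pik3r2 was at 2.23 and 1.97 RPKM in CIS-null against 6.00 and 4.29 RPKM in wild type in vitro libraries. Its value of -1.29 (SE 0.169, edgeR adjusted p = 0.00409) passed under all 18 alternatives. Pik3r6 was lower by the same test (-0.63, SE 0.169, edgeR adjusted p = 0.0289), a call that 7 of the 18 alternatives ended. In the other lists 4 of 8 phosphatases were lower, Inpp4a most (-1.44, edgeR adjusted p = 0.0177), as were 2 of 3 class II and III genes, 2 of 8 kinases, 1 of 5 adaptors and 1 of 8 FOXO targets, and no other gene of them passed by edgeR. Of all tested genes 14.6% were lower here, and the counts for adaptors and FOXO targets lie near that share. With the length trend removed, Pik3r4, Inpp5e, Phlpp1 and Gsk3b did not pass, and Irs2 (0.74) and Pdpk1 (0.33) were called higher.

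Ex vivo the genotypes were not shown to differ in any of the 9 genes. By edgeR 0 of 9 passed, beside 0.0607% of all tested genes, and DESeq2 and limma-voom also called 0. An unadjusted p under 0.05 was found by edgeR for 0 of the 9, and for 844 of the 13184 tested genes. The log2 fold changes ran between -0.21 for Pik3r1 (95% interval -0.46 to 0.04) and 0.11 for Pik3ip1 (95% interval -0.23 to 0.46). Pik3r1 was lower in both CIS-null libraries (62.9 and 64.0 RPKM) than in both wild type libraries (73.6 and 73.0 RPKM), and did not pass (SE 0.109, edgeR adjusted p = 0.766). Pik3cg (-0.14, edgeR adjusted p = 0.783) and Pik3cd (-0.12, 0.849) were likewise below without overlap and Akt1 above (0.04, 0.923), and none of the 3 passed. Without the share of all tested genes that separate so, which is not given here, these separations only describe the libraries. In the 6 lists of other pathway genes edgeR, DESeq2 and limma-voom called 0, and 1 gene, Pik3r6, had an unadjusted p under 0.05 (-1.17, edgeR adjusted p = 0.719).

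The difference between the genotype effects of the 2 states (the interaction) passed for 0 of the 9 genes by edgeR, DESeq2 and limma-voom. By edgeR 5 had an unadjusted p under 0.05, as did 2586 of the 13184 tested genes, and 0.137% of all tested genes passed. The interaction was largest for Pik3ip1 (-0.57, SE 0.211, edgeR adjusted p = 0.205) and Pik3cg (-0.54, SE 0.164, edgeR adjusted p = 0.147). The lower values in vitro were therefore not shown to be particular to cultured cells, nor was the rise of Pik3ip1 on culture shown to differ between genotypes. Leaving out CIS-null in vitro replicate 1 brought Pik3cg (-0.71, edgeR adjusted p = 0.0483) and Pik3r5 (-0.77, 0.0496) past the threshold. For Pik3r2 the interaction was -1.31 (edgeR adjusted p = 0.0774), and it passed by DESeq2 (-1.27, adjusted p = 0.000707), with no low-count filter (-1.25, 0.0464) and with the length trend removed (-1.22, 0.0420).

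The genes whose profile over the 8 libraries was most like that of each of the 9 were sought among 9200 genes, by the root mean squared difference of centred log2 CPM. Pik3cb was nearest to Rnf216 (0.0849) and B3gnt7 (0.0925), the largest differences of any of the 9. Pik3r5 was nearest to Pip5k1c (0.0360), which encodes a kinase that makes the substrate of class I PI3 kinases, and Cul9 (0.0441). The nearest gene was Cpeb4 for Pik3cd (0.0564), Phf20 for Pik3cg (0.0514), Sf3b2 for Pik3ca (0.0345) and Mapk7 for Pik3r1 (0.0466). It was Gbf1 for Inpp5d (0.0436), St8sia4 for Pik3ip1 (0.0661) and Gclc for Akt1 (0.0337). The profiles share libraries and depth, so this is a description.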

How the data were processed

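The 8 RNA sequencing libraries of mouse NK cells were grouped by genotype and state as the titles give them. Per the submitters' processing notes, the tools were Subread, featureCounts and limma and the build GRCm38/mm10; versions, strand setting and the handling of shared reads are not given in the sources used here, so overlapping genes (Pik3ca with Kcnmb3, Pik3ip1 with Gm12592 and Gm11944) are uncertain, though those partners had at most 14 counts. The deposited matrix holds raw counts per gene with a gene length, and the authors' per-sample files hold log2 RPKM for 12372 genes, used for 1 alternative.

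The tests used edgeR 4.0.16 under R 4.3.3: filterByExpr (minimum count 10, minimum total 15), TMM scaling, 1 mean per group over all 8 libraries (4 residual degrees of freedom), quasi-likelihood F tests and Benjamini-Hochberg adjustment over 13184 genes at 0.05. SE is the size of the log2 fold change divided by the root of F, and 95% intervals use the same fit. RPKM values were computed from the counts with TMM scaling. Alternatives were DESeq2 1.42.0, limma-voom and limma on log2 RPKM (limma 3.58.1), RLE factors, library totals, no filter, at least 5 CPM in 2 libraries, only the groups compared, a replicate block, a spline on length (4 degrees of freedom) removed per library, and each library left out. Within each group the replicates differed beyond counting noise (5.96 to 34.2 chi-square units per degree of freedom). Profiles were compared on log2(CPM + 0.5) for genes of at least 5 CPM on average, and the nearest 2 per gene were kept. Promoters are from RefSeq (GRCm38.p6), matched by gene identifier for 9 of 9 genes. Positions come from the RefSeq gene table of that build. The fit was tested on simulated data. All 9 genes were named in each comparison, with up to 4 passing genes with the largest change per list of other pathway genes; a few of these genes are not reported here. The genes and lists were chosen with earlier results of these data known.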

Additional observations from a re-analysis of the deposited data

How the results depend on the processing

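In the genotype comparison ex vivo 0 of the 9 genes were called by edgeR under every alternative tried. With the length trend removed, 3 of the 9 were called for genotype in vitro, 4 for culture in CIS-null cells and 5 for culture in wild type cells, against 6, 7 and 8 without that step. Of all 13184 tested genes, 2925, 9391 and 8461 were called with that step, against 3374, 9539 and 8395 without it. Leaving out 1 library gave 0 to 7 for genotype in vitro, 6 to 7 for culture in CIS-null cells, 4 to 8 for culture in wild type cells and 0 to 2 for the interaction. The other alternatives left these counts within 1.5 times.

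The labels do not say whether the replicate numbers pair the libraries. Correlations between groups of the difference of replicate 1 from replicate 2 were -0.333 to 0.166. They cannot settle pairing, because these differences also ran with gene length (Spearman's rho -0.389 in CIS-null ex vivo, 0.477 in CIS-null in vitro). With a replicate block, 0 of the 9 genes were called ex vivo, 4 for genotype in vitro, 0 for the interaction, 7 for culture in CIS-null and 7 in wild type cells. Over all tested genes the block gave, in the same order, 6, 2527, 6, 9257 and 7986 calls. Without it there were 8, 3374, 18, 9539 and 8395. The block ended the calls of Pik3cb (adjusted p = 0.0532) and Pik3r1 (0.0555) for genotype in vitro and of Pik3cd (0.0551) for culture in wild type cells.

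Directions changed in a few cases. Removing the length trend gave log2 values of 0.0887 for Pik3ca ex vivo, 0.0886 for Pik3cd and 0.0681 for Pik3r1 in vitro, 0.15 for Pik3cd and 0.14 for Pik3r1 in the interaction, 0.0424 for Pik3cd on culture in CIS-null cells and 0.0303 for Akt1 on culture in wild type cells. Of these, Pik3r1 in vitro and Pik3cd on culture had passed without that step. Library totals gave -0.0131 for the interaction of Akt1, -0.0257 for Akt1 on culture in CIS-null cells and -0.00736 for Pik3cb ex vivo. Pik3cb ex vivo was -0.00412 with no filter, -0.00181 with the stricter filter, -0.00516 by log2 RPKM and -0.00247 with only the groups compared. By log2 RPKM, Akt1 on culture in wild type cells was 0.0555. Leaving out 1 library gave, ex vivo, -0.23 to 0.0588 for Pik3ca, -0.19 to 0.19 for Pik3cb and -0.10 to 0.30 for Pik3ip1. It gave -0.41 to 0.0215 for Pik3cd in vitro, -0.28 to 0.16 for its interaction, -0.31 to 0.0900 for Pik3ip1 on culture in CIS-null cells and -0.0312 to 0.0165 for Akt1 on culture in wild type cells.

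Over all tested genes, edgeR called 8 for genotype ex vivo, against 45 by DESeq2, 23 with no filter, 19 with the length trend removed, 5 with only the groups compared and 3 to 41 with a library left out. It called 18 for the interaction, against 592 by DESeq2, 75 with no filter, 137 with the length trend removed, 6 with the block, 1 by log2 RPKM and 6 to 378 with a library left out. It called 3374 for genotype in vitro, against 500 to 4296 with a library left out. Of these 42.8% were higher, against 21.2% with library totals, where the median gene stood at -0.13, and 53.4% with the length trend removed. For the interaction 38.9% were higher, against 22.2% with library totals (median -0.16), and for culture in CIS-null cells the median was -0.17 with library totals. With 2 libraries per group, small changes cannot be told from replicate spread.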
